A study of Mus musculus with 32 samples.

Results

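Hippocampal RNA from 16 adult male mice was compared by the number of intact Kmt2a copies. The 8 mice with 1 copy were Kmt2a-HET (Kmt2a+/-, Kdm5c intact) and the double mutants, DM (Kmt2a+/-, Kdm5c-/y). The 8 mice with 2 copies were WT and Kdm5c-KO (Kdm5c-/y), with 4 mice in each of the 4 genotypes, so Kdm5c status is balanced across the Kmt2a comparison and entered the model as a second term. These 16 hippocampal libraries were chosen by their labels from 32 in the series, and the rest are amygdala libraries of the same animals. The comparison covers every gene of the table other than the spike-ins. The mice were F1 hybrids between 129S1/SvImJ Kmt2a+/- males and C57BL/6J Kdm5c+/- females. The Kmt2a allele lacks exons 8 and 9 in every tissue and is not restricted to neurons. Tissue was dissected in bulk, so fewer cells of a type and less RNA per cell cannot be told apart.

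KMT2A, also called MLL1, is a histone methyltransferase that places methyl groups on lysine 4 of histone H3, a mark found at active promoters. It works in a complex with the WRAD subunits and is tethered to chromatin in part by a CXXC domain that binds unmethylated CG dinucleotides. KDM5C removes methyl groups from the same lysine. One inactive copy of KMT2A causes Wiedemann-Steiner syndrome in humans, and in neurons the enzyme is known for its part in memory and for keeping expression of developmental factors such as Meis2 and the Hox genes.

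The libraries held 19322262 to 27798980 gene-assigned expected counts each (the authors' estimated read counts per gene). The range was 19322262 to 27798980 with 1 copy and 20266915 to 26915445 with 2 copies. At these depths 3 counts in a library amount to between 0.108 and 0.155 CPM. Of 53715 genes in the table, 29869 had a count in the hippocampus and 29820 received a p-value. Dentate gyrus markers were detected in each library, with summed normalised counts of 15922.9 or more, and were not set against another tissue. There were 4 libraries that carried striatal, thalamic, hypothalamic or cortical markers more than 1 log2 unit above the hippocampal median. These were Kdm5c-KO replicate 1 (striatum, by 2.11, and hypothalamus and pituitary, by 2.06), Kdm5c-KO replicate 4 (hypothalamus and pituitary, by 1.30), Kmt2a-HET replicate 1 (thalamus and habenula, by 1.29) and WT replicate 4 (cortex, by 1.19). Of the 4, 3 lie on the 2-copy side. The hypothalamus and pituitary list holds Pomc, Trh, Lhb and Mc3r, which the paper lists as changed in Kdm5c-KO and rescued in DM. Its score was 0.58 to 2.06 above the median in Kdm5c-KO and from -0.041 to 0.0074 in DM. It reached 0.62 in WT and 0.82 in Kmt2a-HET. Whether it reflects neighbouring tissue or Kdm5c genotype was not tested. Choroid plexus markers, which did not enter the choice of the 4, were more than 1 log2 unit above the median in 6 libraries. These were Kdm5c-KO replicates 1 and 4 again (by 4.38 and 2.09) and a further 4, WT replicate 3 (by 1.84), Kdm5c-KO replicate 3 (by 1.57), DM replicate 2 (by 2.85) and DM replicate 4 (by 3.15). With choroid plexus 8 libraries therefore stand apart, 5 with 2 copies and 3 with 1. Of Kdm5c-KO only replicate 2 is left without them, so every fit without the 8 rests on 1 library for that genotype. Values without the first 4 libraries are given further on for the called genes and for the named list members that moved by over 1.5 times. P-values measure the spread between these mice.

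Normalised counts of Kmt2a itself (chromosome 9, 44803355 to 44881296, mm10) were no lower with 1 copy. They ran from 2971 to 6647, median 4982, with 1 copy and from 2788 to 5919, median 4117, with 2 copies. The sides overlapped across most of their range, and the fitted log2 difference was 0.19 ± 0.17 (SE, adjusted p = 0.758). Exons 8 and 9 are 206 of 16461 spliced bases, so a count over the whole gene hardly registers their loss and does not check the genotype. Of 6 listed transcripts 2 exceeded a mean of 10 normalised counts. The major one averaged 4018 ± 936 (SD, n = 8) against 3745 ± 1019 (n = 8). The second averaged 716 ± 371 against 406 ± 161 (two-sided exact permutation p = 0.0493, adjusted p = 0.148 over 3 tests). These 2 transcripts share exons 8 and 9 and differ by 9 bases in exon 14. Kdm5c, the covariate, fell by 0.30 ± 0.06 on the log2 scale with Kdm5c deletion (adjusted p = 3.06e-04) and differed by 0.09 ± 0.06 between the Kmt2a sides (adjusted p = 0.675).

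Between 1 and 2 copies of Kmt2a, 20 genes passed an adjusted p of 0.1 in DESeq2, which is 0.0671% of the 29820 tested. Of these 14 were lower with 1 copy (0.0469% of genes tested) and 6 were higher (0.0201%). The lower genes include the calcium sensor Hpcal1, the sodium pump regulator Fxyd6, the vesicle protein Rab3b and a series of cell surface and matrix proteins. The higher genes include the glial potassium channel Kcnj10, the activin subunit Inhba and the macrophage protein Mpeg1. Absolute log2 differences ran from 0.22 to 2.03, over 1 for 4 of the 20, with a median of -0.69 among the lower and 0.33 among the higher genes. The direction was shared by both Kdm5c backgrounds for 20 of 20, a property that the pooled fit favours. The calls were not stable to the test: edgeR's quasi-likelihood test called 0 genes (1429 at an unadjusted p under 0.05, against 1722, or 5.77%, in DESeq2), and DESeq2 at an adjusted p of 0.05 with its filter set for that level also called 0. Without the 4 libraries that carry markers of other regions DESeq2 called 3 genes, 1 of them among the 20. Without the 8 libraries that carry markers of other regions or of choroid plexus it called 11, 0 of them among the 20. In that fit, which holds 1 Kdm5c-KO library, 20 of 20 kept their direction and 12 of the 14 lower genes shrank by more than 1.5 times. The median absolute log2 difference of the 20 was 0.34 there against 0.66 over all libraries.

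**Figure D1:**
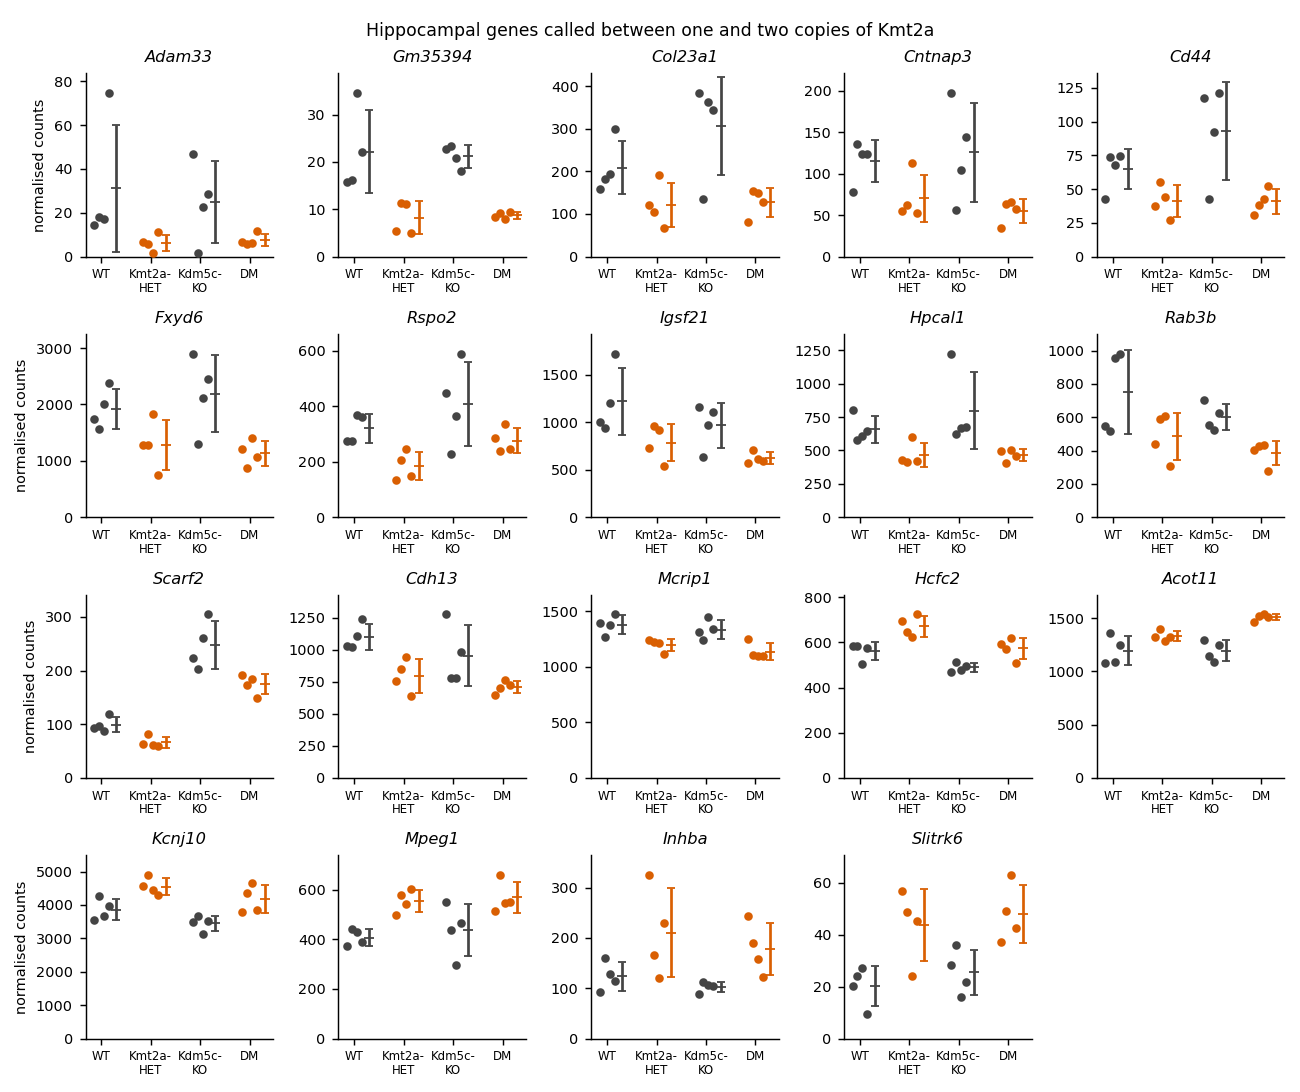
Normalised counts (y axis, from 0) of 19 of the 20 called genes in each hippocampal library, with 2 copies of Kmt2a in grey and 1 copy in orange. Each point is 1 mouse and the bar beside each genotype is the mean ± SD (n = 4). Gm35394 is the gene whose sides do not overlap, and the Kdm5c-KO points of Hpcal1, Col23a1 and Cntnap3 spread widely.

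Among all 29820 tested genes 7, or 0.0235%, had no overlap between the 8 libraries of each side, and 1 of the 20 called genes was among them. Within a background 9 of the 20 did not overlap between Kmt2a-HET and WT (1.54% of all genes) and 10 did not overlap between DM and Kdm5c-KO (2.78%). That gene was the lincRNA Gm35394 (chromosome 5, 99274095 to 99279284), a transcript of no known function. It ran from 4.91 to 11.3 normalised counts, median 8.86, with 1 copy and from 15.8 to 34.6, median 21.4, with 2 copies. The log2 difference was -1.34 ± 0.29 (SE, adjusted p = 0.045). Gm35394 overlaps Rasgef1b on the other strand, and whether counting used strand is not given in the sources used here.

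The first group of protein-coding genes acts in calcium, ion or vesicle handling. The groups of called genes here and in the next 2 paragraphs were formed after the genes were seen. Hpcal1 (chromosome 12, 17690856 to 17791933) encodes a neuronal calcium sensor of the visinin-like family. Its counts ran from 405 to 603, median 446, with 1 copy and from 578 to 1225, median 655, with 2 copies. Only Kmt2a-HET replicate 3 on the low side exceeded the lowest 2-copy library, and Kdm5c-KO replicate 1, the library with striatal markers, set the top. The log2 difference was -0.63 ± 0.14 (adjusted p = 0.045). Fxyd6 (chromosome 9, 45370185 to 45396159) encodes a small membrane regulator of the sodium-potassium pump. It ran from 745 to 1826, median 1239, against 1298 to 2903, median 2059. Here 2 libraries of the low side lay above the lowest of the high side, and the difference was -0.77 ± 0.18 (adjusted p = 0.0511). Rab3b (chromosome 4, 108879063 to 108943324), a small GTPase of synaptic vesicles, ran from 280 to 605, median 433, against 517 to 983, median 591. WT replicates 3 and 4 stood well above the other 2-copy libraries, and the difference was -0.63 ± 0.16 (adjusted p = 0.0995).

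Lower genes for cell surface and matrix proteins come next, a grouping whose share over all tested genes was not counted. Igsf21 (chromosome 4, 140026846 to 140246784), a synaptic adhesion molecule that binds neurexin, ran from 537 to 958, median 661, with 1 copy and from 631 to 1724, median 1060, with 2 copies (log2 -0.64 ± 0.15, adjusted p = 0.0663). Cdh13 (chromosome 8, 118283733 to 119324921) encodes T-cadherin, a cadherin held by a lipid anchor. It ran from 637 to 945, median 742, against 780 to 1279, median 1026, and its sides overlapped by 2 libraries each (-0.44 ± 0.11, adjusted p = 0.0663). Col23a1 (chromosome 11, 51289920 to 51583918), a membrane-spanning collagen, ran from 67.5 to 192, median 124, against 134 to 384, median 246. The single Kdm5c-KO library at 134 lay far below the other 3 of its genotype, at 345 to 384, and the difference was -1.02 ± 0.23 (adjusted p = 0.0511). Cd44 (chromosome 2, 102811141 to 102901665), the hyaluronan receptor, ran from 27.0 to 55.5, median 40.4, against 42.3 to 121, median 74.2 (-0.93 ± 0.23, adjusted p = 0.0724). Its overlap came from WT replicate 1 and Kdm5c-KO replicate 2, which lay at the level of the 1-copy libraries. Cntnap3 (chromosome 13, 64736182 to 64903955), a relative of the contactin-associated axonal proteins, ran from 34.7 to 113, median 59.8, against 56.8 to 198, median 124 (-0.95 ± 0.24, adjusted p = 0.0978). Scarf2 (chromosome 16, 17797282 to 17808293) encodes a class F scavenger receptor. It overlapped by 4 libraries on each side over all genotypes, since it also rose by 1.36 ± 0.12 with Kdm5c deletion (adjusted p = 1.26e-26), a contrast that called 1.78% of genes. Within a background its sides were apart: 58.9 to 81.5 in Kmt2a-HET against 87.6 to 119 in WT, and 149 to 192 in DM against 204 to 305 in Kdm5c-KO. The Kmt2a difference was -0.54 ± 0.12 (adjusted p = 0.045). Adam33 (chromosome 2, 131050591 to 131063814), a membrane metalloprotease, was near the detection limit, at 1.86 to 11.5, median 6.36, against 1.802 to 74.7, median 20.5. Its fitted difference of -2.03 ± 0.51 (adjusted p = 0.0833) leaned on WT replicate 4 at 74.7, and Kdm5c-KO replicate 2 was the lowest of all 16.

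Other lower genes code for a secreted signal and a corepressor partner. Rspo2 (chromosome 15, 43020794 to 43170826), a secreted enhancer of Wnt signalling, ran from 135 to 336, median 241, with 1 copy and from 228 to 590, median 362, with 2 copies. Kmt2a-HET lay apart from WT, at 135 to 244 against 276 to 367, whereas DM and Kdm5c-KO overlapped (log2 -0.68 ± 0.17, adjusted p = 0.0953). Mcrip1 (chromosome 11, 120542888 to 120549727), which binds the corepressor CtBP, showed the smallest change of the 20. It ran from 1094 to 1253, median 1164, against 1244 to 1475, median 1359, and 1 library of each side crossed (-0.22 ± 0.05, adjusted p = 0.0663).

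Glial and activity-linked genes were among the 6 higher genes, and each of the 6 overlapped between the sides. Kcnj10 (chromosome 1, 172341210 to 172374085), the inward rectifier by which astrocytes take up potassium, ran from 3799 to 4901, median 4414, with 1 copy and from 3137 to 4262, median 3610, with 2 copies (log2 0.26 ± 0.06, adjusted p = 0.0663). Mpeg1 (chromosome 19, 12460779 to 12465283), a pore-forming protein of microglia and macrophages, ran from 499 to 661, median 550, against 297 to 552, median 433. Every 1-copy library but 1 lay at 516 or more, whereas 7 of the 2-copy libraries lay at 466 or less (0.41 ± 0.10, adjusted p = 0.0953). It is also the gene of the 20 that still passed without the 4 libraries with markers of other regions (0.55, adjusted p = 0.01). Inhba (chromosome 13, 16011851 to 16031621) encodes the activin beta-A subunit, a secreted factor induced by neuronal activity. It ran from 121 to 326, median 178, against 89.0 to 160, median 109, and Kmt2a-HET replicate 1, a library with thalamic markers, set the top (0.78 ± 0.19, adjusted p = 0.0663). Slitrk6 (chromosome 14, 110748580 to 110755149), a transmembrane protein of neurite growth, ran from 24.2 to 63.1, median 47.0, against 9.34 to 36.0, median 22.9 (1.02 ± 0.25, adjusted p = 0.0663). Hcfc2 (chromosome 10, 82696160 to 82742428), a relative of the MLL-complex subunit HCFC1, ran from 511 to 725, median 621, against 469 to 585, median 509 (0.24 ± 0.06, adjusted p = 0.0833). It was lower with Kdm5c deletion, by -0.21 ± 0.06 (adjusted p = 0.0302). Acot11 (chromosome 4, 106744555 to 106804998), an acyl-CoA thioesterase, ran from 1289 to 1536, median 1433, against 1075 to 1358, median 1194 (0.25 ± 0.06, adjusted p = 0.0978). Kcnj10, Hcfc2 and Acot11 change sign when libraries are scaled on the ERCC spike-ins, under which the median gene with a mean of at least 20 counts shifts by -0.42.

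The direction of the 20 genes held under each of the 15 alternative settings except that spike-in scaling, which reversed 3, and in each of the 16 fits that left out 1 library. Significance did not. Leaving out WT replicate 3, WT replicate 4, Kmt2a-HET replicate 4, DM replicate 2 or DM replicate 3 left 0 called genes of any kind. Leaving out WT replicate 2 raised the number to 448, Kmt2a-HET replicate 3 to 196 and Kdm5c-KO replicate 2 to 156. Without DM replicate 1 it was 65, without WT replicate 1 it was 26 and without Kdm5c-KO replicate 1 it was 15. The other libraries gave 11 (Kmt2a-HET replicate 2), 9 (Kmt2a-HET replicate 1), 3 (Kdm5c-KO replicate 3), 2 (Kdm5c-KO replicate 4) and 3 (DM replicate 4). Of the 20, 11 were among the 448 genes called without WT replicate 2.

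**Figure D2:**
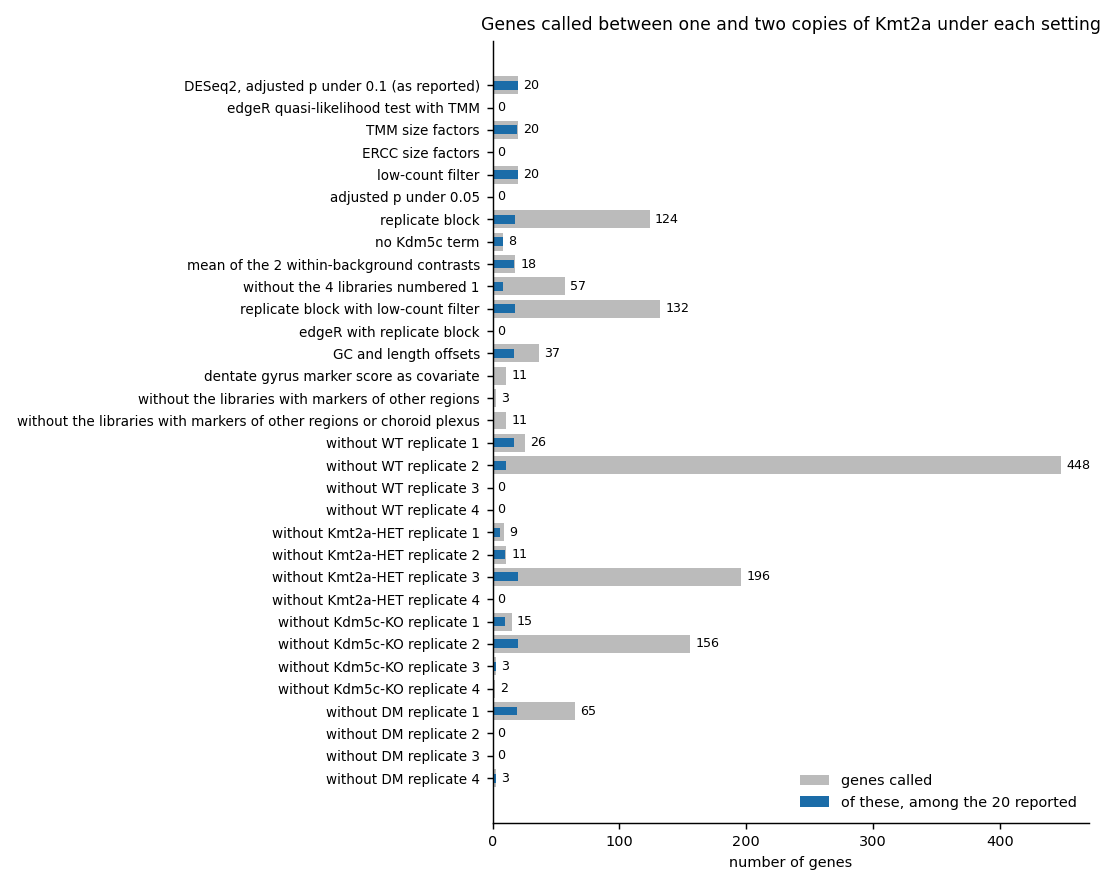
Number of genes called in hippocampus (x axis) under the setting of the report, each alternative and each omitted library (y axis). Grey bars are all calls and blue bars the calls shared with the 20 reported genes. The number ranges from 0 to 448.

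Promoter windows are shown for the 2 protein-coding genes of each direction with the smallest p, because the CXXC domain of KMT2A binds CG dinucleotides. Each is the RefSeq window on GRCm38.p6 from 250 bases before to 50 bases after the start, 5′ to 3′ on the strand of the gene, with CG in capitals. The first pair was lower and the second pair higher with 1 copy.
Scarf2, chr16:17797032-17797331, plus strand: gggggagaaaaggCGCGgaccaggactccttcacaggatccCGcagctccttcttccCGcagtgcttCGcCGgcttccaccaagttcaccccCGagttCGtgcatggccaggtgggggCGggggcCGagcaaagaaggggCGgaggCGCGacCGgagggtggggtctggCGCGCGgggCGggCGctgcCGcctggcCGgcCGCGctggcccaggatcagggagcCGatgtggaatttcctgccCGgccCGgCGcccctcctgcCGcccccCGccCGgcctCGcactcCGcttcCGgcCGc
Hpcal1, chr12:17690559-17690858, plus strand: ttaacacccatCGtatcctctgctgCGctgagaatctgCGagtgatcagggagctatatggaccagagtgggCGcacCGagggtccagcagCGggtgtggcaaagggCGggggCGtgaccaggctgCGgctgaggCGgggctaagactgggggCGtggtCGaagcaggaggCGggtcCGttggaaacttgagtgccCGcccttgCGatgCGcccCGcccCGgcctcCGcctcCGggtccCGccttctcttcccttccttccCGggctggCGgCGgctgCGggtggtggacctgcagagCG
Kcnj10, chr1:172340960-172341259, plus strand: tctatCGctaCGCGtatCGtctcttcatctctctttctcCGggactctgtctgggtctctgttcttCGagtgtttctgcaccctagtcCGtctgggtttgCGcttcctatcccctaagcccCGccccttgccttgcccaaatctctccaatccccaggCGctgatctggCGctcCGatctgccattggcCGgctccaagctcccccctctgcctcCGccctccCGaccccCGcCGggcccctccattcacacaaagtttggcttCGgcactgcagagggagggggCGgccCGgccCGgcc
Inhba, chr13:16011601-16011900, plus strand: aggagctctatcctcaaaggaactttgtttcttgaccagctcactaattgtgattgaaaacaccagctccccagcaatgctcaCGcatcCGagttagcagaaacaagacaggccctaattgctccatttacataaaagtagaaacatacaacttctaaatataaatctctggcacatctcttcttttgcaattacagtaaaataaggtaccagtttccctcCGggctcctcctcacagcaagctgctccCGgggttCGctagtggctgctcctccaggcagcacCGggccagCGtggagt
These windows hold 34, 27, 21 and 7 CG dinucleotides. Among all 32851 windows the median is 7 CG, at least 1 is held by 94.6% and 10 or more by 43.5%. Of the called genes 16 matched a window by symbol. Taking the richest window of each, 7 of 10 lower genes and 3 of 6 higher genes held 10 or more, with medians of 18.0 and 13.5. The richest window held 10 or more for 45.8% of all 27025 symbols of the table, with a median of 8. These symbols were not limited to genes expressed in hippocampus, as the called genes are, so the shares are not like for like. The count of CG in a window says nothing about binding there.

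The question of whether a lost Kmt2a copy acts alike with and without Kdm5c was put to each pair of genotypes alone. DM against Kdm5c-KO gave 42 called genes, 0.149% of 28139 tested, of which 31 were lower (0.11%) and 11 higher (0.0391%). Kmt2a-HET against WT gave 2 called genes, 0.00713% of 28067. The interaction term called 0 genes in DESeq2 (571 at an unadjusted p under 0.05, 1.91%) and 0 in edgeR (410). In DESeq2 it called 63 with a replicate block, 3 with the block and a low-count filter, 16 with the dentate marker score, 16 without the 4 libraries with markers of other regions and 22 without the 8, so the 0 depends on the setting. The fit without the 8 holds 1 Kdm5c-KO library, so its count has no replicates for that genotype. Among the 42 genes 36 had the same sign in Kmt2a-HET against WT, 5 of them with an unadjusted p under 0.05 there. Among the 42, 5 were also among the 20, namely Fxyd6, Col23a1, Hpcal1, Rab3b and Acot11. Neither count is stable, since the 42 became 1 without Kdm5c-KO replicate 3 and 430 without Kdm5c-KO replicate 2, and edgeR called 0 in both pairs (1257 and 405 at an unadjusted p under 0.05).

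A few genes called in the Kdm5c-KO background are given as examples, chosen after their values were seen. Npy, the neuropeptide Y gene of hippocampal interneurons, averaged 287 ± 60.6 (SD, n = 4) in DM against 485 ± 29.8 in Kdm5c-KO (log2 -0.76 ± 0.16, adjusted p = 0.00745). It stood at 383 ± 110 in Kmt2a-HET and 440 ± 153 in WT. Oxtr, the oxytocin receptor, averaged 126 ± 9.46 in DM against 232 ± 82.1 in Kdm5c-KO (adjusted p = 0.0965) and 161 ± 120 against 146 ± 36.9 with Kdm5c intact. Ptbp3, an RNA-binding splicing regulator, had the smallest adjusted p. It averaged 732 ± 42.6 in DM against 497 ± 43.5 in Kdm5c-KO (0.56 ± 0.11, adjusted p = 0.00204), with 704 ± 141 and 593 ± 137 in Kmt2a-HET and WT. In the background with intact Kdm5c the calls were the predicted gene Gm14308, at 121 ± 35.3 against 35.7 ± 5.63 (1.75 ± 0.28, adjusted p = 8.47e-06), and Vill, a villin-like actin-binding protein, at 18.7 ± 14.3 against 78.8 ± 28.1 (-2.09 ± 0.46, adjusted p = 0.0912).

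The pairs share no library, so genes taken from one can be looked at in the other. Of 84 genes with an unadjusted p under 0.005 in Kmt2a-HET against WT, 68 (81%) had the same direction in DM against Kdm5c-KO, and 10 (11.9%) also had an unadjusted p under 0.05 there. Over all 26342 genes tested in both pairs the same shares were 57.3% and 4.1%. Of 256 genes taken from DM against Kdm5c-KO, 197 (77%) had the same direction in Kmt2a-HET against WT and 16 (6.25%) also passed, against 57.3% and 1.51% of all genes. Genes are not independent of each other, and the 4 libraries with markers of other regions are spread over both pairs, with WT replicate 4 and Kmt2a-HET replicate 1 in one and Kdm5c-KO replicates 1 and 4 in the other.

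**Figure D3:**
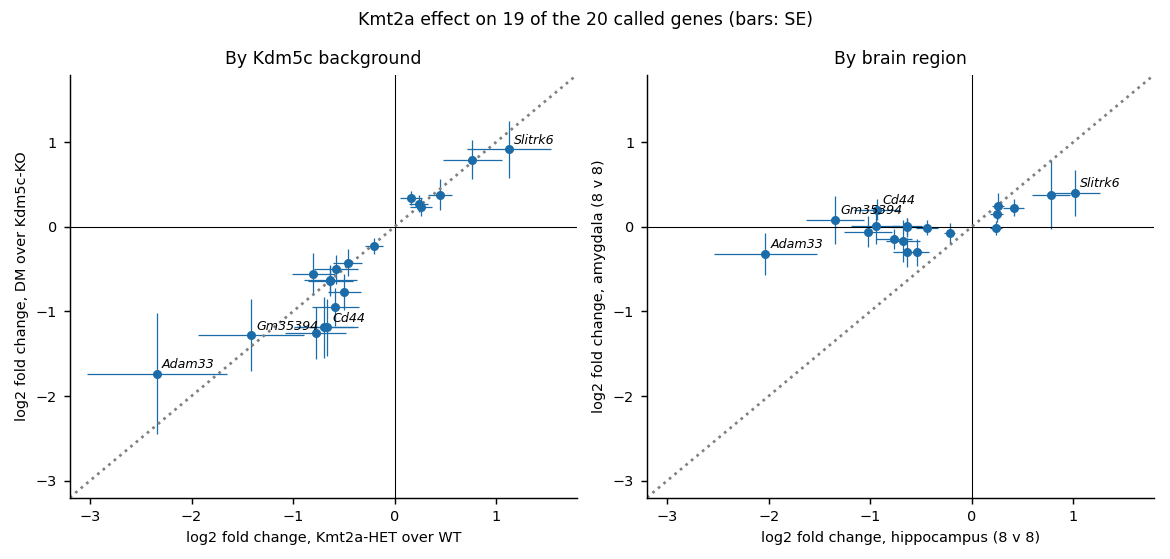
Log2 fold change (1 over 2 copies of Kmt2a, with SE) of 19 of the 20 called genes. The left panel sets DM over Kdm5c-KO (y) against Kmt2a-HET over WT (x) and the right panel sets amygdala (y) against hippocampus (x). The genes were chosen by the pooled hippocampal fit, which favours like signs on the left and smaller values in amygdala. On the left Col23a1 (-1.26 on y, -0.78 on x) and Fxyd6 (-0.95 and -0.58) lie off the line of equality. On the right most points lie closer to 0 on the amygdala axis, but Kcnj10 is about as large in both regions.

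No marker of a hippocampal field passed adjustment, and dentate markers leaned one way. Dentate gyrus markers were higher with 1 copy for 15 of 15 genes (median log2 0.30 beside 0.01 over all genes tested). At an unadjusted p under 0.05, 8 were higher and 0 lower (2.73% and 3.04% of all genes). That count was 5 higher and 0 lower in edgeR, and 0 and 0 in DESeq2 without the 4 libraries with markers of other regions, where Tdo2 stood at 0.38 and Stxbp6 at 0.19. Without the 8 libraries that include those with choroid plexus markers the direction of the list turned, with 3 of 15 higher and a median of -0.10. The granule cell genes with the smallest p were Trpc6 (0.45 ± 0.17, adjusted p = 0.395), Tdo2 (0.68 ± 0.27, adjusted p = 0.448) and Stxbp6 (0.38 ± 0.17, adjusted p = 0.538). Summed dentate markers ran from 20676.6 to 43040.3 normalised counts, median 26740, with 1 copy and from 15922.9 to 30734.7, median 23570, with 2 copies. The lowest sums were those of Kdm5c-KO replicates 1, 3 and 4, and the highest that of Kmt2a-HET replicate 4. CA1 and subiculum markers had a median of 0.18 (3 of 14 higher and 0 lower at an unadjusted p under 0.05), with Ndst4 first (0.69 ± 0.27, adjusted p = 0.436). CA2 and CA3 markers had a median of 0.09 (1 higher and 2 lower of 17), with Necab1 first (-0.64 ± 0.21, adjusted p = 0.288, and -0.23 without the 4 libraries). The CA2 and CA3 median turned to -0.15 without the 4 libraries, with 4 of 17 higher, and to -0.02 without the 8. With the dentate marker score as a covariate 11 genes were called, of which 0 were among the 20, all of which kept their direction. In that fit Kcnj10 stood at 0.26, Acot11 at 0.25, Mpeg1 at 0.43 and Gm35394 at -1.18, whereas Col23a1 stood at -0.59 and Fxyd6 at -0.44. The part of dentate gyrus content in the 20 was not tested beyond this fit.

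Markers of tissue bordering the hippocampus leaned down in some lists and up in others, and none passed adjustment. Choroid plexus markers were below 0 for 17 of 17 genes, median -1.11, with 0 higher and 3 lower at an unadjusted p under 0.05. Without the libraries numbered 1 the median was -0.375, with 1 gene above 0 and 0 lower at that level. With a replicate block 0 were lower at that level. Ttr, the transthyretin gene of choroid epithelium, ran from 216 to 21340, median 621, with 1 copy and from 238 to 87960, median 7500, with 2 copies (-2.43 ± 0.98, adjusted p = 0.46). Libraries of both sides reached high values, so the sides overlapped. Hypothalamic and pituitary markers had a median of -1.25 (0 higher and 6 lower of 18), with Cartpt first at -1.37 ± 0.38 (adjusted p = 0.146, and -0.75 without the 4 libraries). That list shares Pomc, Trh, Lhb and Mc3r with the genes that the paper lists as rescued in DM. Cortical markers had a median of -0.34 (0 higher and 5 lower of 14) and striatal markers -0.17 (2 higher and 3 lower of 13). Thalamic and habenular markers had a median of 0.30 (5 higher and 1 lower of 16), with Plekhg1 at 0.50 ± 0.14 (adjusted p = 0.146, 0.0533 with a replicate block and 0.541 in edgeR). Without the 4 libraries named above the medians were 0.13 for dentate gyrus, -0.62 for choroid plexus, -0.66 for hypothalamus and pituitary, -0.05 for cortex, 0.01 for striatum and 0.21 for thalamus and habenula. Without the 8 libraries choroid plexus stood at -0.84, hypothalamus and pituitary at -0.52 and thalamus and habenula at 0.26.

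Of the 14 lower called genes, 13 had their highest value in one of the 4 libraries with markers of other regions. That library was one of the 4 for 72.4% of the 751 lower genes with an unadjusted p under 0.05 and a mean of at least 20 normalised counts, and for 55.9% of all 7325 lower genes at that level. Their mean in 2-copy amygdala was above that in 2-copy hippocampus for 11 of 14 lower genes and for 4 of 6 higher genes, beside 63.2% of all 14900 genes at that level and 78% of the 751 lower genes with an unadjusted p under 0.05. It was at least 1.5 times as high for 8 of the 14, beside 8.92% of all genes, with each region scaled on its own. The part of neighbouring tissue in these differences was not tested beyond the fit without those libraries, in which 20 of 20 kept their direction and 1 passed, and the fit without the 8, in which 0 passed.

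Without the 4 libraries differences of the lower genes were smaller than over all libraries. Adam33 stood at -1.11, Igsf21 at -0.38, Cdh13 at -0.26, Rspo2 at -0.37 and Cntnap3 at -0.56. Hpcal1 stood at -0.47, Fxyd6 at -0.52, Col23a1 at -0.74, Cd44 at -0.63, Rab3b at -0.45 and Scarf2 at -0.43. Gm35394 and Mcrip1 moved little, to -1.30 and -0.21. Of the higher genes Kcnj10 stood at 0.27, Acot11 at 0.31, Hcfc2 at 0.23, Mpeg1 at 0.55, Inhba at 0.56 and Slitrk6 at 0.80. Without the 8 libraries the lower genes were nearer 0 again, with Adam33 at -0.59, Fxyd6 at -0.23, Igsf21 at -0.21, Rab3b at -0.20 and Rspo2 at -0.15.

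**Figure D4:**
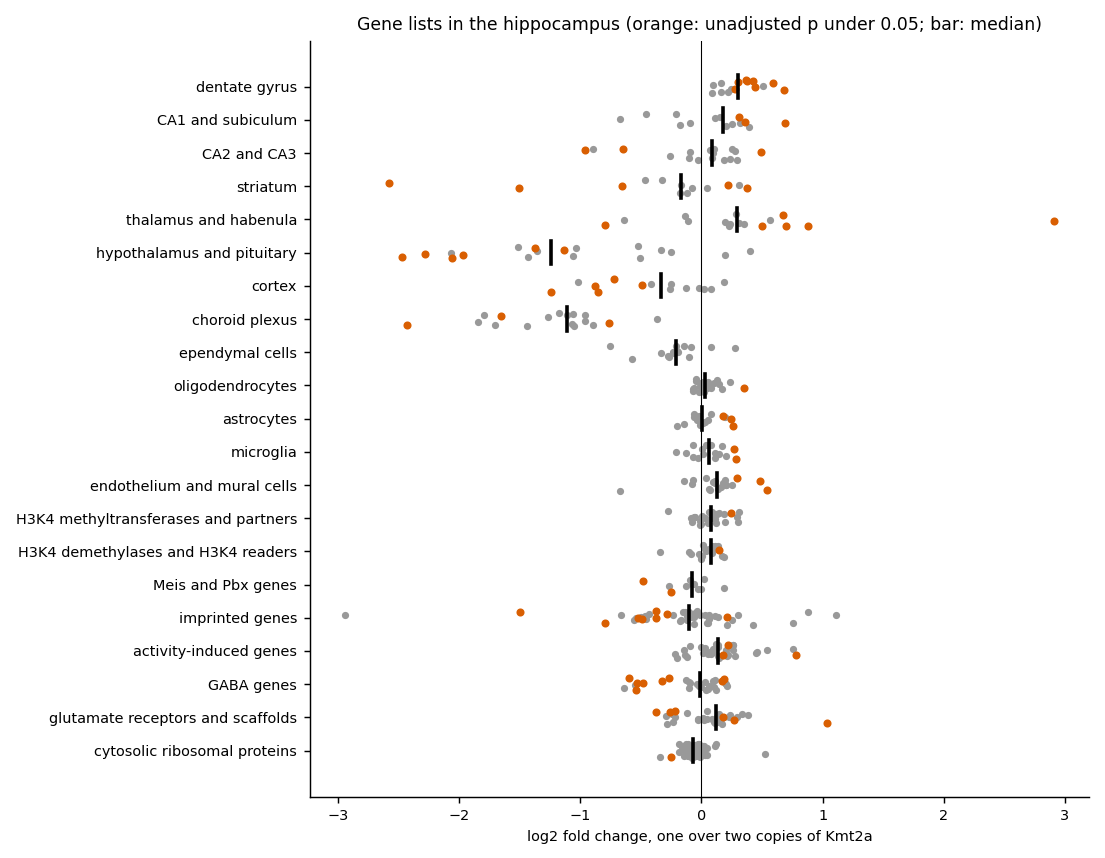
Log2 fold change (x axis, 1 over 2 copies of Kmt2a) of the members of 21 gene lists (y axis). Each point is a gene, orange where its unadjusted p is under 0.05, and the black bar is the list median. Dentate gyrus markers lie to the right of 0 and choroid plexus markers to the left, whereas chromatin and ribosomal lists lie close to 0.

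Markers of cell classes were examined in the same way, and none passed adjustment over all libraries with the model used throughout. Over all 29 gene lists 2 members were called in that model, 10 with a replicate block, 5 with GC and length offsets and 4 without the libraries numbered 1. The median of 6 lists turned in sign without the 4 libraries with markers of other regions, of 7 without the 8 and of 16 with spike-in scaling. Oligodendrocyte markers had a median of 0.03 (1 higher and 0 lower of 22 at an unadjusted p under 0.05, Enpp6 first at 0.35 ± 0.17), astrocyte markers 0.01 (3 and 0 of 16, Gfap first at 0.26 ± 0.11, and 0.12 without the 4 libraries) and ependymal markers -0.21 (0 and 0 of 15). The oligodendrocyte median was 0.10 without the 4 libraries, 0.32 without the 8 (21 of 22 higher, 6 at an unadjusted p under 0.05) and 0.26 with the dentate score (21 of 22 higher, 8 at that level). The ependymal median turned to 0.10 without the 8 libraries and to 0.15 with the dentate score. Microglial markers had a median of 0.06 (2 and 0 of 16). It was 0.13 with 6 higher and 1 called without the libraries numbered 1, and 0.10 with 4 higher and 1 called with GC and length offsets. Cx3cr1, the fractalkine receptor of microglia, narrowly missed the threshold beside the called Mpeg1. It ran from 1064 to 1341, median 1139, with 1 copy and from 770 to 1063, median 985, with 2 copies, so the sides met without overlap. The log2 difference was 0.29 ± 0.07 (adjusted p = 0.127, 0.0514 with a replicate block and 0.541 in edgeR). It did not pass without the 4 libraries. Endothelial and mural markers had a median of 0.13 (3 and 0 of 20), with Vwf, the von Willebrand factor gene, at 0.54 ± 0.15 (adjusted p = 0.146, 0.0514 with a replicate block and 0.541 in edgeR). Their median was 0.24 with 6 higher without the 4 libraries, 0.17 with 0 higher without the 8, and 0.23 with 9 higher and 2 called without the libraries numbered 1. Blood markers had 0 and 0 of 11. Interferon and antigen presentation genes had 0 and 0 of 24 and a median of -0.07, which turned to 0.10 without the 8 libraries.

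Partners of KMT2A showed little change. Of 25 tested genes for H3K4 methyltransferases and their partners 1, Hcfc2, passed and was higher, and the median was 0.08. Dpy30, a core subunit, stood at -0.27 ± 0.14 (adjusted p = 0.596), the related enzyme Kmt2c at 0.30 ± 0.16 (adjusted p = 0.597, 0.084 with a replicate block and 0.583 in edgeR) and Ash1l at 0.19 ± 0.11 (adjusted p = 0.626). None of 24 H3K4 demethylases and readers passed (median 0.08, Taf3 first at 0.14 ± 0.07, adjusted p = 0.594, and 0.09 without the 4 libraries). Among the classical targets, 23 of 39 Hox genes had counts to test and none had an unadjusted p under 0.05. Their mean was at most 1.95 normalised counts on either side, so a change would hardly be detectable. Of 11 Meis and Pbx genes none passed adjustment, and 2 were lower and 0 higher at an unadjusted p under 0.05. Meis2, a homeodomain factor, ran from 379 to 868, median 555, with 1 copy and from 516 to 1176, median 780, with 2 copies (-0.48 ± 0.17, adjusted p = 0.366), and stood at -0.17 without the 4 libraries with markers of other regions. In that fit 0 of the 11 had an unadjusted p under 0.05 and the median of the list turned from -0.08 to 0.05, with 7 of 11 higher.

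Among lists of neuronal function, activity-induced genes had 1 called member, Inhba, with 28 of 35 higher, beside 51.4% of all genes tested, and a median of 0.14. The median was 0.07 without the 4 libraries and also without the 8, and without the libraries numbered 1 it was 0.09, with 20 of 34 higher. Egr3 (0.22 ± 0.10, adjusted p = 0.557), Homer1 (0.18 ± 0.08, adjusted p = 0.557) and Bdnf (0.28 ± 0.14, adjusted p = 0.596, and 0.05 without the 4 libraries and -0.015 without the 8) did not pass. None of 28 GABA genes passed, but 6 were lower and 2 higher at an unadjusted p under 0.05, or 28.6% of the list. The share was 5.77% over all genes and 9.6% over genes with a mean of at least 20 normalised counts. Without the 4 libraries with markers of other regions the list had 1 lower and 0 higher at that level, and with the dentate score 2 lower and 0 higher. Sst, the somatostatin gene of a class of interneurons, ran from 1456 to 2785, median 2562, against 2158 to 3985, median 3386 (-0.54 ± 0.17, adjusted p = 0.254, 0.0657 with a replicate block and 0.541 in edgeR). The receptor subunit gene Gabra3 (-0.53 ± 0.19, adjusted p = 0.324, and -0.15 without the 4 libraries) and Reln, which encodes the matrix protein reelin (-0.27 ± 0.10, adjusted p = 0.38), followed. Glutamate receptor and scaffold genes had 3 higher and 3 lower of 36, with the receptor subunits Grin2d at -0.26 ± 0.09, Grin3b at 1.04 ± 0.40 and Gria2 at 0.27 ± 0.12 (adjusted p = 0.324, 0.422 and 0.544). Clock genes had 1 higher of 20 (Bhlhe40, 0.26 ± 0.12, adjusted p = 0.553) and glucocorticoid-induced genes 0 of 18.

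Imprinted genes had 0 of 46 called in the pooled fit and a median of -0.10. At an unadjusted p under 0.05, 7 were lower and 1 higher, or 17.4% of the list. The share was 5.77% over all genes and 9.6% over genes with a mean of at least 20 normalised counts. Ndn, the paternally expressed necdin gene, came closest to the threshold from below. It ran from 2047 to 4884, median 3461, with 1 copy and from 4184 to 6241, median 4788, with 2 copies (-0.53 ± 0.14, adjusted p = 0.127, 0.0679 with a replicate block and 0.541 in edgeR). It was called in DM against Kdm5c-KO, at 3020 ± 837 against 5310 ± 766 (SD, n = 4, log2 -0.81 ± 0.19, DESeq2 adjusted p = 0.0171), and stood at -0.24 ± 0.14 in Kmt2a-HET against WT (adjusted p = 0.998). Grb10, a growth factor receptor adaptor, stood at -0.29 ± 0.12 (adjusted p = 0.512) and Rtl1 at -0.38 ± 0.17 (adjusted p = 0.533), and without the 4 libraries at -0.11 and -0.09, where the list had 1 higher and 2 lower. The list median turned to 0.02 without the 8 libraries, with 25 of 46 higher. Without the 4 libraries numbered 1 the list instead had 6 higher and 1 lower. Germline genes had 0 of 22 with an unadjusted p under 0.05, as did 15 mitochondrially encoded genes. Of 79 ribosomal protein genes 67 were below 0, with a median of -0.07 and 1 at an unadjusted p under 0.05 (Rpl41, -0.25 ± 0.11). With offsets for length and GC 39 of 79 were above 0 and the median was 0.00. The 7 tested neuroactive ligand and receptor genes picked by the study on these samples are not independent evidence of direction. They had 2 lower and 0 higher at an unadjusted p under 0.05, with Mc3r first (-2.28 ± 1.02, adjusted p = 0.538).

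Genes near Kmt2a were examined because the deleted allele is inherited with its flanking sequence. Within 10 Mb, 356 genes were tested and 1 was called, Fxyd6, at 488.9 kb. At an unadjusted p under 0.05, 5 were higher and 8 lower, or 3.65% beside 5.77% of all genes. Within 1 Mb 96 genes were tested, 3 had an unadjusted p under 0.05 and the median was 0.02. After Fxyd6, Dixdc1 (0.19 ± 0.06, adjusted p = 0.28) had the smallest p.

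In the amygdala of the same mice the same factorial fit called 0 of 30330 genes in DESeq2 (934 at an unadjusted p under 0.05, 3.08%) and 0 in edgeR (657). Of the 20 hippocampal genes 15 had the same sign there and 2 had an unadjusted p under 0.05, Mpeg1 (0.23 ± 0.10) among them, and none passed adjustment. The sign was also shared by 54.4% of 28115 genes tested in both regions, and by 71.8% of the 1430 with a mean of at least 20 normalised counts and an unadjusted p under 0.05 in hippocampus. Both regions come from the same mice, so the count is a description. The difference between regions was tested across all 32 libraries. It was called for 3 genes, 0.00937% of 32034, 1 of them Cd44 among the 20 (log2 -1.14 ± 0.25, adjusted p = 0.0939). Cd44 in amygdala ran from 58.1 to 100.5 with 1 copy and from 54.6 to 99.2 with 2 copies. With the mouse as a block, which the shared animals call for, 0 genes were called and with edgeR 0. The 2 regions of a mouse deviated together in 14 of 16 mice (correlation over 0.1, median 0.19).

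Fold changes followed transcript length and GC content. Across 14883 genes with a mean of at least 20 normalised counts, Spearman's rho between the log2 fold change and transcript length was 0.34, and with GC it was -0.29. The median log2 fold change went from -0.07 in the shortest of 5 equal classes to 0.08 in the longest, and from 0.07 in the class of lowest GC to -0.05 in the highest. Single libraries tilted either way, from -0.35 in Kdm5c-KO replicate 1 to 0.47 in WT replicate 2 for length, and the points of a correlation over genes share these libraries. With offsets for length and GC, 37 genes were called, 17 of them among the 20. Mcrip1, which has a short transcript, was not one of the 17 (-0.11, adjusted p = 0.553).

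**Figure D5:**
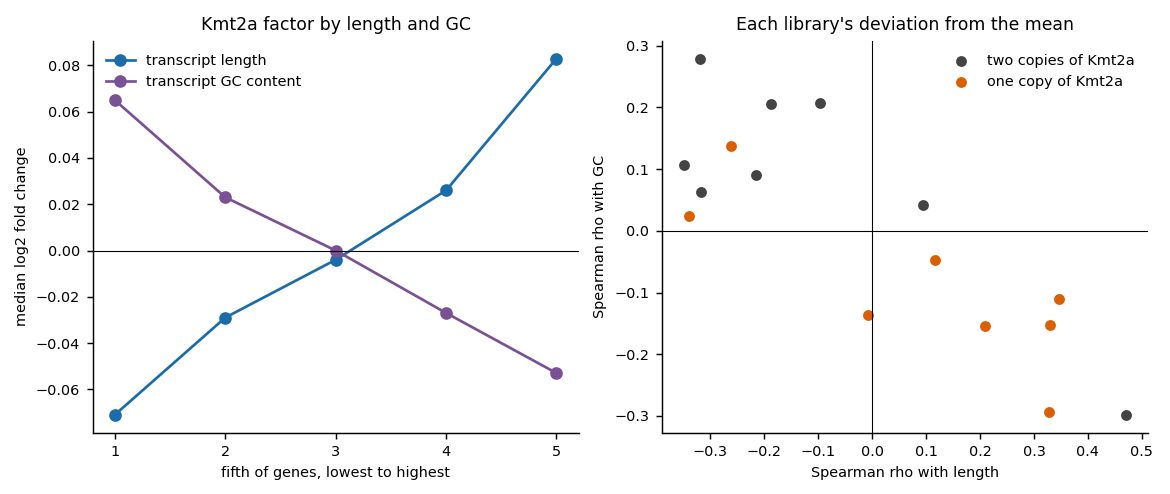
Left, median log2 fold change (y axis, 1 over 2 copies of Kmt2a) in each of 5 equal classes of genes by transcript length or GC content (x axis). Right, Spearman's rho of each library's deviation from the gene mean with length (x) and GC (y), with 1 copy in orange and 2 copies in grey. WT replicate 2 lies at the far right with 0.47.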

How the data were processed

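Adult male hippocampus and amygdala of 4 genotypes were sequenced by the authors with a directional poly(A) protocol and ERCC spike-ins. Per the labels and the study's methods, reads were aligned with STAR 2.5.3a, uniquely mapped and deduplicated reads were counted with featureCounts (Subread 1.5.0), and DESeq2 1.14.1 was used. The deposited tables hold expected counts per gene and per transcript, and the estimator that made them is not given in the sources used here. They were rounded to whole numbers. The 92 spike-ins were kept out of library sizes and tests. Gene names and coordinates came from GENCODE M21 (mm10), matched by identifier without version for 53620 of 53715 genes.

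The Kmt2a factor was tested with DESeq2 1.42.0 (R 4.3.3) in a model of Kdm5c status plus Kmt2a copy number over 16 libraries, by the Wald test with unshrunken fold changes, default size factors, and Benjamini-Hochberg adjusted p under 0.1. Normalised counts are counts divided by these size factors. Pairs of genotypes, the interaction, the amygdala and the difference between regions were fitted likewise. Alternatives were edgeR 4.0.16 quasi-likelihood tests, other size factors (TMM, ERCC), a filter of at least 10 counts in 4 libraries, an adjusted p of 0.05, a replicate block, no Kdm5c term, and leaving out each library. Offsets for length and GC, the dentate score, and the fits without 4 and without 8 libraries were chosen after seeing the data. Scripts were tested on simulated data, in which DESeq2 called unchanged genes more often than the nominal rate of its adjusted p and edgeR did not, so the DESeq2 calls are the less strict of the pair. Named genes were Kmt2a, Kdm5c, the called genes, and from each list up to 3 members of smallest p. The members and lists were chosen with earlier results of these data known. Each library is 1 mouse; 24 replicate pairs all differed by more than sampling noise (chi-square per gene from 10.0). Counting floors cover counting error only. Of the genes this rule names, some are not reported here.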

Additional observations from a re-analysis of the deposited data

Results flagged for a closer look

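In 88 groups of 4 libraries (22 genes in 4 genotypes), 7 held a value whose gap to its neighbour took most of the range. Chance flags about 1 in 20 such groups. Hpcal1 stood at 603 in Kmt2a-HET replicate 3, with the next at 432, and at 1225 in Kdm5c-KO replicate 1, with the next at 673. Cntnap3 stood at 113 in Kmt2a-HET replicate 3, with the next at 62.3. Col23a1 was low in Kdm5c-KO replicate 2, at 134 with the next at 345. Mcrip1 stood at 1253 in DM replicate 1 (next 1106), Hcfc2 at 503 in WT replicate 3 (next 575) and Adam33 at 74.7 in WT replicate 4 (next 18.2).

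The Kmt2a effect differed between hippocampus and amygdala by an interaction test for 3 genes, none of which was called with the mouse as a block. Cd44 differed by -1.14 on the log2 scale. Dmrt3 differed by -4.56, with 0.372 ± 0.515 normalised counts (SD, n = 8) in 2-copy amygdala and 7.79 ± 13.0 in 1-copy amygdala, against 25.6 ± 23.2 and 14.2 ± 10.3 in hippocampus. For Gm26778 the fit returned -30, which is no usable size, since 15 of 16 hippocampal libraries had no count and the last had 140.5.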

How the results depend on the processing

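The 20 hippocampal genes kept their direction under every setting except spike-in scaling. The count of called genes was 0 with edgeR, with ERCC size factors, at an adjusted p of 0.05 and with edgeR plus replicate block. It was 8 with no Kdm5c term, 57 without the libraries numbered 1, 37 with GC and length offsets, 11 with the dentate score, 3 without the 4 libraries with markers of other regions and 11 without those and the libraries with choroid plexus markers (8 in all). It ranged from 0 to 448 when single libraries were left out. The cause was not tested. The labels state no litter, batch or day for a replicate number, though the libraries numbered 1 carry the lowest animal number of their genotype, and replicate number took 73.9% of principal component 3 (9.77% of variance): 8 of 24 pairs deviated together (correlation over 0.1, median -0.004), 4 of the 6 pairs numbered 1 among them (median 0.266), and 8 of 16 libraries correlated best with their own number. With a replicate block 124 genes were called, 18 of them among the 20, and with the low-count filter as well 132.

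The Kdm5c factor (532 genes) gave 245 with edgeR and with edgeR plus block, 22 with ERCC factors, 280 without the 4 libraries, 134 without the 8, and 377 to 785 with single libraries left out. The interaction (0) gave 63 with a replicate block, 3 with block and low-count filter, 16 with the dentate score and 16 without the 4 libraries, 22 without the 8, and 0 to 2 with single libraries left out. Kmt2a-HET against WT (2) gave 0 with edgeR, 0 with ERCC factors, 5 with the low-count filter, 1 at 0.05 and 2 to 32 with single libraries left out. DM against Kdm5c-KO (42) gave 0 with edgeR, 2 with ERCC factors, 21 at 0.05, 103 with a replicate block and 1 to 430 with single libraries left out. The amygdala (0) gave 7 with a replicate block and 0 to 11. The region difference (3) gave 0 with edgeR, 1 at 0.05, 0 with the mouse as replicate block and 0 to 7.

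ERCC scaling, under which spike-ins were 0.0503% to 0.295% of counts, reversed Kmt2a (-0.26), Kcnj10 (-0.17), Hcfc2 (-0.19), Acot11 (-0.20), Kmt2c (-0.13), Ash1l (-0.22), Taf3 (-0.21), Egr3 (-0.26), Homer1 (-0.33), Bdnf (-0.079), Bhlhe40 (-0.10), Gria2 (-0.12), Enpp6 (0.00), Gfap (-0.051), Cx3cr1 (-0.11) and Dixdc1 (-0.22). Leaving out the 8 libraries reversed Bdnf (-0.015), Tdo2 (-0.099) and Stxbp6 (-0.07). With depths of 19322262 to 27798980 counts, genes of a few counts such as Hox genes and Adam33 are limited by sampling.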
